A study of Homo sapiens with 15 samples.

Results

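Collagens, laminins and other secreted matrix proteins were followed in SNB19 glioblastoma cells that carried an empty vector or 1 of 4 ZBTB18 constructs. The members were all gene symbols of the deposited table with the form of a collagen chain (COL, number, A, number) or a laminin chain (LAMA, LAMB or LAMC with a digit), together with 14 named matrix genes: FN1, SPARC, TNC, FBN1, FBLN1, NID1, NID2, BGN, VCAN, LUM, DCN, LOX, LOXL2 and HSPG2. This gave 63 of the 18485 genes in the table. The rule uses symbols alone, but it was written with earlier results of these data known. Of these, 30 had a summed count of 30 or more over the 15 libraries and were tested, and 33 fell under that limit and are described by their counts only. The same limit, applied without regard to groups, left 10183 genes in the whole table. Of the 30, 5 reached it only through 1 group: without FL, COL11A1, COL21A1 and LAMB3 held 16, 28 and 23 counts, and without EV, COL7A1 and COL17A1 held 22 and 25. Their differences from that group are in part set by the limit. Where they are named in a count of members against that group, this is stated, and such counts, shares and medians are in part set by the limit too.

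SNB19 is an established human glioblastoma line, grown here in DMEM with serum. All 15 libraries came from lentivirally transduced cells, in 5 groups of 3: the empty vector pCHMWS (EV), full-length ZBTB18 (FL), its mutant (FL-mut), the short form called SF-Nte, and the mutated short form (SF-mut). ZBTB18 is a zinc finger transcriptional repressor. The labels do not give the mutated residues, whether the cells were pools or clones, or whether replicates were separate cultures, so p-values reflect library-to-library spread alone, which may be technical. All groups share 1 cell line.

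Collagen chains fold 3 at a time into a triple helix and are assembled outside the cell: fibrillar chains into fibrils, collagen IV into the sheet of the basement membrane, and the remaining classes onto or between these. Laminins are trimers of an alpha, a beta and a gamma chain that, with collagen IV, nidogens and perlecan, make up basement membranes. Adult brain parenchyma holds little fibrillar collagen and is rich in proteoglycans and tenascins, while cultured glioma lines with mesenchymal traits are known to transcribe many matrix genes.

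Total counts lay between 315693 and 1930245 per library, and all 6 short-form libraries (315693 to 603155) were shallower than the 9 others (803316 to 1930245). Levels are CPM, counts scaled to a library of 1000000 after TMM scaling; they average over all cells, so fewer expressing cells and less RNA per cell cannot be told apart. A single count stood for 0.519 CPM in the deepest library and 2.82 CPM in the shallowest. ZBTB18 stood at 4.40 to 7.26 CPM in EV and at 197 CPM or more in each of the 12 construct libraries. The labels and the transgene thus went together. Construct levels differed: ZBTB18 ranged from 613 to 2932 CPM over the FL libraries and from 874 to 7080 over FL-mut. SF-mut ranged from 819 to 3316, while SF-Nte, at 197 to 450, lay below every library of the other constructs. The log2 difference was -2.25 for SF-Nte against FL (edgeR unadjusted p = 0.0071, adjusted p = 0.22). For SF-mut against SF-Nte it was 2.51 (0.0037 and 0.60). The part of ZBTB18 level in comparisons between constructs was not tested. Of the lists of cell type markers, summed endothelial, immune and epithelial markers reached at most 22.9, 33.2 and 12.1 CPM in any library. Fibroblast and pericyte markers (6 of 8 in the table) summed to 42.6 to 67.9 CPM in EV, 19.0 to 26.3 in FL, 29.2 to 105 in FL-mut, 36.4 to 81.7 in SF-Nte and 72.2 to 163 in SF-mut. Of these 6, PDGFRB was at 0 counts in EV, FL and SF-mut, PDGFRA in FL, FAP in FL-mut and ACTA2 in SF-Nte. RGS5 was read in every group (mean 4.86 CPM in EV to 8.32 in FL), and THY1 stood at 43.9 ± 13.7 CPM in EV (SD, n = 3) and 12.3 ± 4.49 in FL. Astrocyte and glioma markers summed to 439 to 768 CPM in FL and 506 to 1101 across the other groups, with S100B at 0 in EV, FL-mut, SF-Nte and SF-mut and GFAP at 0 in SF-mut. In FL against EV, VIM (log2 fold change -1.31), NES (-2.60) and CD44 (-1.53) stood lower and ALDH1L1 (2.62) higher at an unadjusted edgeR p under 0.05 (0.0026, 0.0043, 0.028 and 0.0030), and none passed after adjustment. The part of these markers in the matrix results was not tested.

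The number of matrix genes read was lowest in the shallow short-form libraries. Among the 9 others it was lowest in the shallowest. These were FL replicate 2 (28 genes, total count 803316), FL-mut replicate 2 (30, 865997) and FL-mut replicate 1 (33, 921436). It did not rise strictly with depth: the deepest library, EV replicate 1, had 39 and FL replicate 1, with a total count of 1393060, had 44. At least 1 count was found for 37 to 39 of the 63 members in the EV libraries, 28 to 44 in FL, 30 to 37 in FL-mut, 22 to 27 in SF-Nte and 25 to 28 in SF-mut. A matrix gene without counts in a short-form library was thus less well measured than one without counts in EV. Over all 63 members, the summed level was 867 ± 379 CPM in EV (SD, n = 3), 581 ± 162 in FL, and 518 ± 78.8 in FL-mut, and SF-Nte summed to 841 ± 99.1 and SF-mut to 790 ± 223. SPARC made up a large share of this; without it the sums were 538 ± 147, 439.7 ± 96.5, 377 ± 72.6, 403 ± 37.1 and 457 ± 121 CPM in the same order, and the ranges of all 5 groups overlapped.

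**Figure D1:**
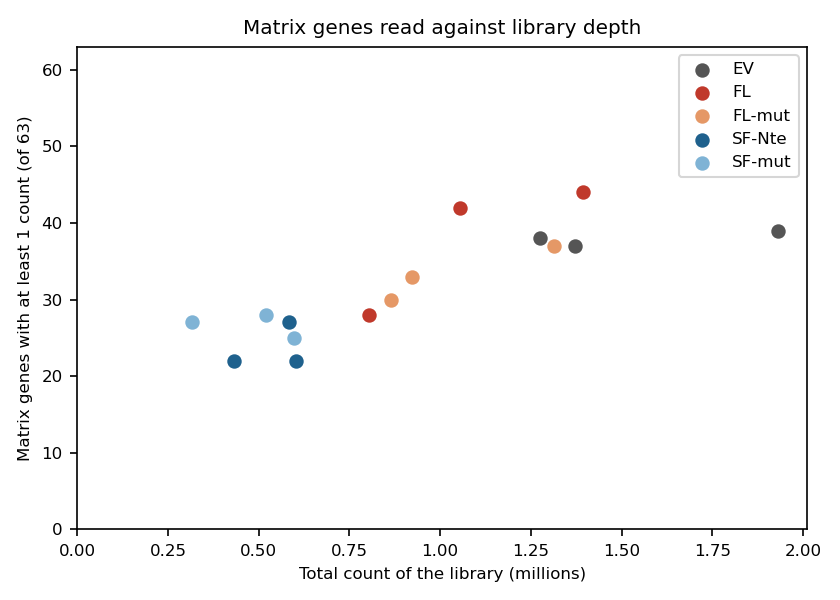
Number of the 63 matrix genes with at least 1 count (vertical axis) against the total count of the library in units of 1000000 (horizontal axis), 1 point per library, coloured by group. The short-form libraries, at 22 to 28 genes, lie at the shallow end, and FL spans 28 to 44.

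**Figure D2:**
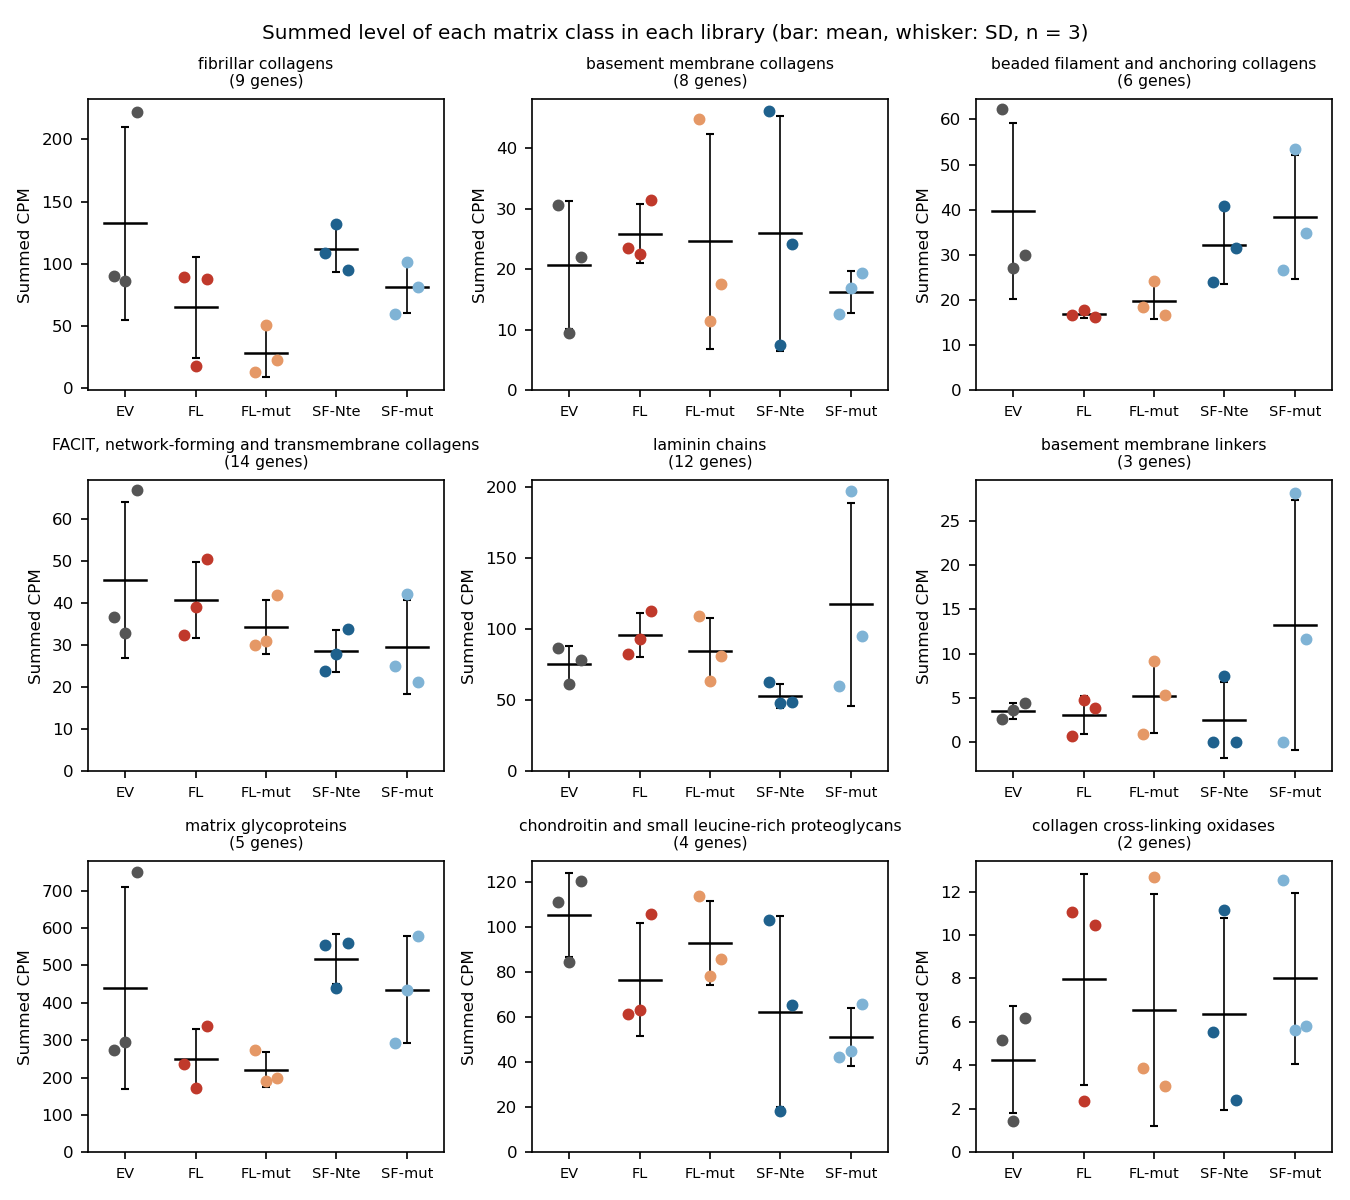
Summed CPM of all members of each matrix class in each library; points are libraries, bars the means and whiskers the SD of 3 libraries. The beaded filament and anchoring collagens of FL (16.2 to 17.8 CPM) lie below those of EV (27.1 to 62.2 CPM), and the other classes overlap between FL and EV.

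Which matrix genes differed with the constructs was tested gene by gene with edgeR, with p-values adjusted over all 10183 genes. In a test of any difference among the 5 groups, 1 of the 30 members passed, COL4A5, where 0.697% of all genes passed. In the comparisons with EV no member passed, against 0.167% of all genes in FL (17 genes, or 26 with the replicate number as a block, the pairing described under processing), 0.128% in FL-mut, while SF-Nte had 0.0295% and SF-mut 0.0393%. At an unadjusted edgeR p under 0.05 FL had 9 members (6.99% of all genes), FL-mut 4 (9.14%), SF-Nte 2 (7.49%) and SF-mut 3 (6.17%). Of the 4 in FL-mut, 1 stood higher than in EV (5.07% of all genes) and 3 lower (4.08%). Of the SF-Nte members, 0 stood higher (1.1%) and 2 lower (6.39%), COL4A5 and COL17A1, the latter through the limit only by its EV counts, and of the SF-mut members 1 stood higher (1.15%) and 2 lower (5.02%). DESeq2 called COL5A1 and TNC in FL, where it called 1.35% of all genes, COL5A1 in FL-mut (1.46%) and no member in SF-Nte (0.314%) or SF-mut (0.246%).

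The 9 members in FL comprise 30% of those tested, and with the replicate block 11 members had an unadjusted p under 0.05. COL7A1, one of the 9, reached the limit through EV. Their direction was mixed: 6 stood lower than in EV (3.76% of all genes) and 3 higher (3.23%). The 6 were COL5A1, TNC, COL6A1, COL18A1, COL7A1 and SPARC, and the 3 were COL4A5, LUM and FN1. All 3 FL libraries lay below all 3 EV libraries for 6 members, COL18A1, COL5A1, COL6A1, LAMB1, TNC and VCAN (8.08% of all genes), and above them for another 6, COL21A1, COL4A5, FN1, LAMA2, LAMB3 and LUM (7.9%). Of the latter, COL21A1 and LAMB3 reached the limit through FL. In FL-mut the groups did not overlap for 4 members on the lower side, COL1A2, COL5A1, COL5A2 and SPARC (9.01%), and for COL4A5 on the higher side (7.68%). In SF-Nte this held for COL4A5 on the lower side (12.4%) and LUM on the higher (4.42%), and in SF-mut for COL12A1, COL4A5, LAMB1, LUM and VCAN on the lower (9.73%) and LOXL2 on the higher (2.12%). LUM held 5 counts in EV, 5 in SF-Nte and 0 in SF-mut. A single count in SF-Nte stood for 1.85 CPM or more, above the highest EV level of LUM (1.76 CPM). With 3 counts as the floor, SF-mut was at least 0.57-fold lower, which resolves no decrease.

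The median log2 fold change of the 30 members against EV was -0.32 in FL, -0.36 in FL-mut; SF-Nte gave -0.42 and SF-mut -0.09. Over all 10183 genes the medians were -0.03, 0.04, -0.24 and -0.16. Of the 30 members, 17, 19, 20 and 15 lay below 0, or 56.7%, 63.3%, 66.7% and 50%, where 51.5%, 48.1%, 61.2% and 58.6% of all genes did. Those below 0 include COL7A1 in FL and FL-mut and COL17A1 in FL and SF-Nte, which reached the limit only through EV. COL11A1, COL21A1 and LAMB3, which reached it only through FL, lay above 0 in FL. The members' median lay below that of all genes in FL, FL-mut and SF-Nte and above it in SF-mut; these comparisons share the EV libraries.

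**Figure D3:**
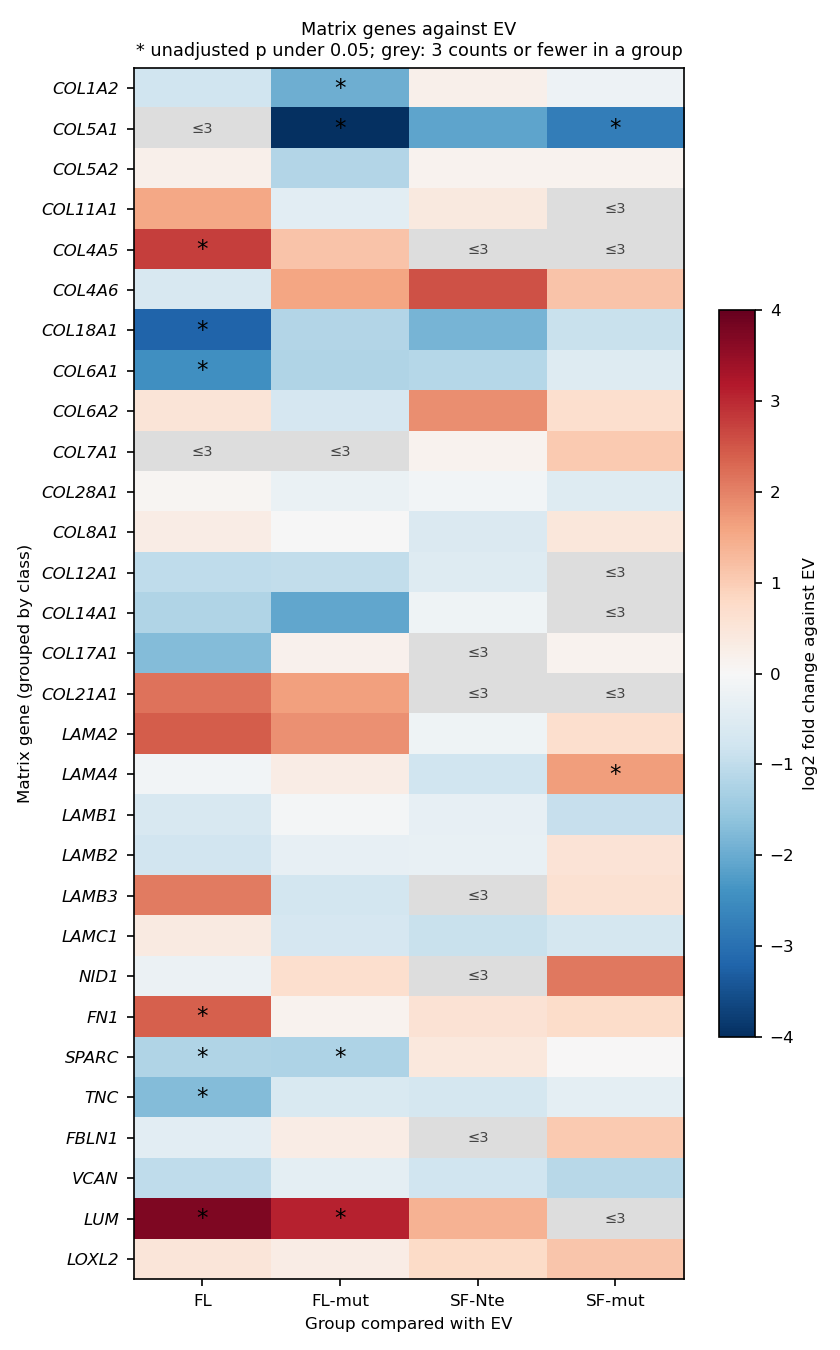
Log2 fold change against EV (colour) of the 30 tested matrix genes (rows, by class) in the 4 construct groups (columns). A star marks an unadjusted edgeR p under 0.05, and grey cells mark 3 counts or fewer in a group, where no fold change is drawn; the starred genes drawn in FL are COL4A5, LUM and FN1, higher, and COL6A1, COL18A1, TNC and SPARC, lower.

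Among the fibrillar collagens, 4 of 9 chains in the table were tested. COL5A1 encodes a chain of collagen V, which nucleates and limits the width of collagen fibrils (chromosome 9, 134641774 to 134844843, plus strand, GRCh38). EV libraries stood at 7.26, 27.9 and 104 CPM, FL at 0, 0 and 1.90, and FL-mut at 0, 6.92 and 1.52. SF-Nte stood at 3.69, 18.6 and 9.69, and SF-mut at 6.28, 5.63 and 7.77. The EV libraries lay above every FL and FL-mut library, and their own spread was wider than that of any other group. With 2 counts in FL against 170 in EV, the ratio of EV to FL was 64.1 (exact 95% interval 17.5 to 533, counting error only; edgeR unadjusted p = 0.00031, adjusted p = 0.091). All deposited COL5A1 counts were even, and the interval assumes that each count is a separate read. EV replicate 3 held 118 of the 170 counts, and the other EV libraries 14 and 38. The fitted log2 fold change, which depends on the prior count where FL holds 2 counts, was -5.95, and it was -4.54 without EV replicate 3 and -8.42 without FL replicate 3.

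Against EV, the log2 fold change of COL5A1 was -4.05 ± 1.13 (SE) in FL-mut. SF-Nte gave -2.10 ± 1.03 and SF-mut -2.78 ± 1.09, and the edgeR adjusted p of the 3 groups were 0.26, 0.67 and 0.76. Without EV replicate 3 these became -2.69, -0.73 and -1.35. COL1A2 encodes a chain of collagen I, the main collagen of fibrous tissue. Its levels were 70.0, 37.4 and 107 CPM in EV, 69.2, 3.57 and 49.5 in FL, and 5.84, 34.6 and 15.2 in FL-mut. In SF-Nte they were 88.6, 81.7 and 75.1, and in SF-mut 37.7, 84.5 and 66.0. FL replicate 2 was far below the other FL libraries, and FL-mut lay below EV in every library (log2 fold change -1.95 ± 0.75, unadjusted p = 0.019, adjusted p = 0.44), from -2.76 without FL-mut replicate 2 to -1.53 without FL-mut replicate 1. COL5A2 ran from 2.38 to 25.7 CPM and overlapped EV in FL, SF-Nte and SF-mut. COL11A1, a chain of collagen XI, had 38 counts, 22 of them in FL and 0 in SF-mut. The partner chain COL1A1 had 12 counts over the 15 libraries and was not tested.

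The basement membrane collagens held the only member that passed. COL4A5 (chromosome X, 108439844 to 108697545, plus strand) encodes the alpha 5 chain of collagen IV, mutated in Alport syndrome. It had 5, 4 and 3 counts in the EV libraries (2.59, 2.94 and 2.64 CPM) and 14, 17 and 29 in FL (9.68, 20.2 and 27.6 CPM). FL-mut libraries held 7, 4 and 9 counts (6.81, 4.61 and 6.85 CPM), and all 3 SF-Nte and all 3 SF-mut libraries held 0. The groups EV, FL and FL-mut did not overlap, with FL the highest, and the 6 short-form libraries all lay below them.

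With 3 counts over the group as the floor, SF-Nte stood 8.95-fold below FL for COL4A5 (edgeR adjusted p = 0.043). The FL counts are taken without their own error in this value. In that comparison 0.599% of all genes passed. Every SF-Nte library also held less ZBTB18 than every FL library, and the part of that level in the call was not tested. The test of any difference among the 5 groups gave an adjusted p of 0.036, lost in 11 of 15 fits with 1 library left out (0.051 to 0.14) and kept without FL replicate 1, FL-mut replicate 2, SF-mut replicate 1 or SF-mut replicate 2. With the replicate number as a block, neither call was kept (edgeR adjusted p = 0.077 among the 5 groups and 0.075 between SF-Nte and FL). Same-number libraries of FL and SF-Nte correlated at only 0.07, -0.06 and 0.04 (measure described under processing), so these groups were not taken as paired. Against EV, FL had a log2 fold change of 2.75 ± 0.80 (unadjusted p = 0.0045, adjusted p = 0.29) and FL-mut of 1.13 ± 0.80 (0.18 and 0.73). With the same floor, both short-form groups stood 1.35-fold or more below EV (edgeR adjusted p = 0.60 for SF-Nte and 0.73 for SF-mut). That value takes the 12 EV counts without their own error and is no firm lower limit. The call of SF-Nte against FL was kept with FL-mut replicate 2 or any 1 SF-mut library left out and lost without any 1 of the 11 other libraries (edgeR adjusted p from 0.052 to 0.14), and a fit of these 2 groups alone gave 0.072. VIM, of the glioma markers, passed in the same comparison, higher in SF-Nte (log2 difference 1.74, edgeR adjusted p = 0.044), and its part in the result was not tested. The first deposited sample sheet lists SF-Nte with EV, FL and FL-mut. SF-mut is only on a second sheet, with SF-Nte, and reuses the barcode names of EV with a suffix. A separate pool of the SF-mut libraries therefore cannot be told apart from that construct in any comparison with SF-mut.

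COL4A6 (chromosome X, 108155607 to 108439497, minus strand) starts 347 bases from COL4A5 in the opposite direction, and the encoded chains can assemble into the same collagen IV trimer. EV held 0, 0 and 12 counts, FL 8, 0 and 0, and FL-mut 31, 0 and 0. SF-Nte held 24, 0 and 6, and SF-mut 6, 0 and 6. It was thus read in 4 of the 6 short-form libraries, where COL4A5 was not. The number-2 library of every group held 0. Its log2 fold change in SF-Nte against EV was 2.54 ± 1.82 (edgeR adjusted p = 0.80), 0.99 without SF-Nte replicate 1 and 7.19 without EV replicate 3.

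**Figure D4:**
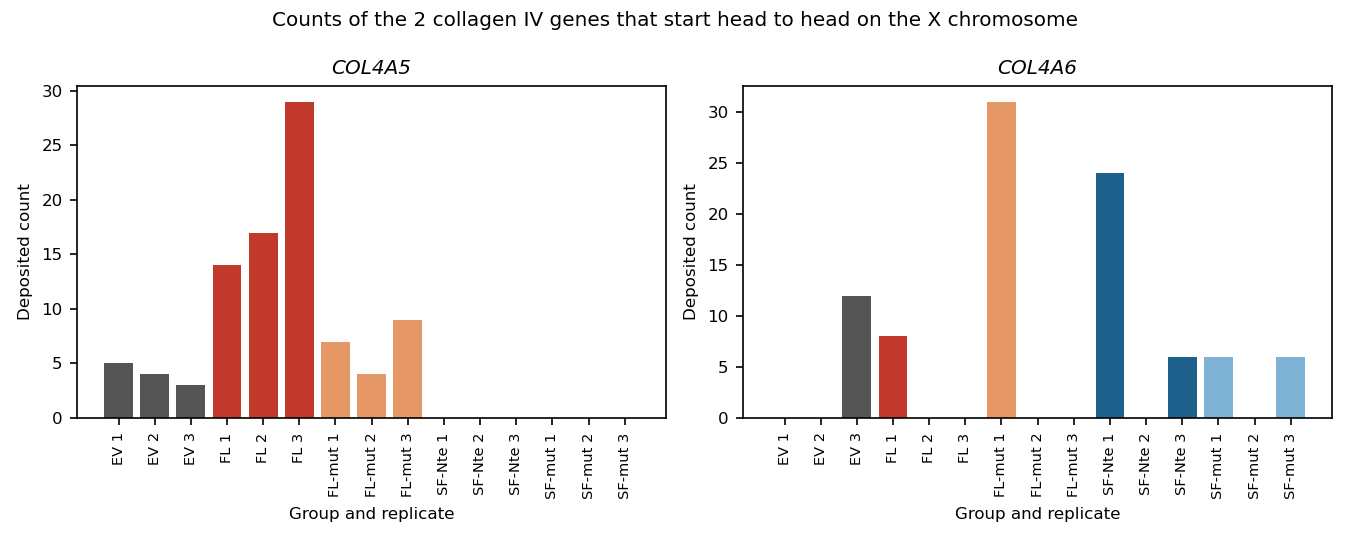
Deposited counts of COL4A5 (left) and COL4A6 (right) in each of the 15 libraries, 1 bar per library, coloured by group. COL4A5 is at 0 in all 6 short-form libraries and highest in FL (14 to 29), whereas COL4A6 is scattered, with its largest counts in FL-mut replicate 1 (31) and SF-Nte replicate 1 (24).

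The sequence between these 2 genes and upstream of 3 further members is shown, because ZBTB18 is known to bind DNA at sites with the core ACATCTG, a form of the E-box CANNTG. The members shown are COL4A5, which passed, COL5A1 and TNC, which had the lowest p-values on the lower side in FL, and FN1, one of the genes higher there; they were chosen after their values were seen. The bases are RefSeq promoter sequence of GRCh38.p14, up to the start of the gene and without bases inside the GENCODE gene. In COL4A5 the 121 capitals mark bases that also lie in the 250 bases upstream of COL4A6, and elsewhere capitals mark CANNTG. The windows are chrX:108439588-108439837 (plus strand), chr9:134641553-134641773 (plus), chr9:115118258-115118407 (minus) and chr2:215436173-215436318 (minus).
COL4A5: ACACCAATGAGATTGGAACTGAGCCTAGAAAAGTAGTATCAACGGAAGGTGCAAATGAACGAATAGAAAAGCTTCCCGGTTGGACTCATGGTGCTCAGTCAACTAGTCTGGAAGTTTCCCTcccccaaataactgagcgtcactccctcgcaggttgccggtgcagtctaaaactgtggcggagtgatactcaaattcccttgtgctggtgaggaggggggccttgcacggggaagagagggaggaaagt
COL5A1: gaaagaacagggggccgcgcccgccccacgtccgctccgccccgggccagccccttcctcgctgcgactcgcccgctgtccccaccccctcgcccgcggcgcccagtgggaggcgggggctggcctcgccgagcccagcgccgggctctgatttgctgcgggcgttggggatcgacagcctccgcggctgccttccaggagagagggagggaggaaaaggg
TNC: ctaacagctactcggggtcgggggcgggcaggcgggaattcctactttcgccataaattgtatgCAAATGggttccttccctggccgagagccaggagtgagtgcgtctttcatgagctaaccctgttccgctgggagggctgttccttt
FN1: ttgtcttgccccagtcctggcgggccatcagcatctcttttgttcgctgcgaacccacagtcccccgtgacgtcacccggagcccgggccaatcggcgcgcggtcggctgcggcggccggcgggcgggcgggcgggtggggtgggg

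The motif ACATCTG, on either strand, was found in the 250 bases upstream of 1 of the 47 members with a RefSeq promoter, the untested NID2, and in 2.83% of 27305 promoters of all genes. The shorter CATCTG, which ACATCTG contains, was found upstream of 3 of 23 tested members, COL7A1, LAMB3 and SPARC (13.0%, against 12.2% of all promoters). CANNTG, which contains both, was found upstream of 8 of the 23 (34.8%, against 62.2%). In the windows printed above, COL4A5 and TNC hold 1 CANNTG match each and COL5A1 and FN1 hold 0. A match is a string of letters and no measured site.

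COL18A1, whose C-terminal fragment is endostatin, completed the tested basement membrane collagens. It stood at 22.8, 2.94 and 7.05 CPM in EV and 2.77, 0 and 0 in FL, and every deposited count was a multiple of 4. The chains COL4A1 and COL4A2, the most widespread collagen IV pair, had 14 and 24 counts in all and were not tested.

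Of the beaded filament and anchoring collagens, COL6A1 was the best measured. It encodes a chain of collagen VI, which links cells to fibrils (chromosome 21, 45981737 to 46005050, plus strand). Levels were 35.3, 13.2 and 19.4 CPM in EV and 5.53, 2.38 and 3.81 in FL, with no overlap. FL-mut libraries stood at 9.74, 13.8 and 6.09, SF-Nte at 7.38, 0 and 24.2, and SF-mut at 12.6, 19.7 and 15.5. The log2 fold change in FL was -2.47 ± 0.86 (edgeR unadjusted p = 0.011, adjusted p = 0.40). COL6A2, its partner, had 46 counts in all and stood at 0 to 24.1 CPM; its difference of 1.87 ± 1.51 on the log2 scale in SF-Nte rested on SF-Nte replicate 2 and was -1.09 without it. COL7A1, the anchoring fibril collagen, had 23, 2 and 0 counts in EV and 0 in all FL libraries. Nearly all EV counts were in replicate 1, and the gene reached the limit only through EV. The highest COL7A1 level was 25.3 CPM, in SF-mut replicate 2. COL28A1 ran from 1.94 to 11.7 CPM with all groups overlapping.

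The fibril-associated, network-forming and transmembrane collagens had 5 of 14 members tested. COL8A1, a short-chain network collagen of vessel walls, ranged from 10.3 to 20.3 CPM in EV, with FL at 13.3 to 26.2 and FL-mut at 10.4 to 19.8. SF-Nte ranged from 3.69 to 16.7 and SF-mut from 12.6 to 31.0. Its groups overlapped in each comparison with EV. COL12A1, which decorates collagen I fibrils, stood at 8.82, 12.5 and 11.5 CPM in EV and 4.71, 0 and 0 in SF-mut. With 3 counts there, all in replicate 1, the ratio of EV to SF-mut was 5.34 (exact 95% interval 1.72 to 26.8, counting error only). The edgeR unadjusted p of COL12A1 in SF-mut against EV was not under 0.05. COL17A1, a hemidesmosome collagen, had 16, 5 and 0 counts in EV and 0 in all SF-Nte libraries, and reached the limit only through EV. For COL21A1, EV stood at 0, 2.94 and 2.64 CPM, FL at 5.53, 8.32 and 11.4, and FL-mut at 3.89, 0 and 12.9. All 6 short-form libraries held 0, as they did for COL4A5. With only 7 counts in EV, SF-Nte and SF-mut were each at least 0.79-fold lower than EV, a bound that resolves no decrease. COL14A1, a fibril-associated collagen, reached 22.02 CPM in 1 EV library and stood at 14.5 CPM or less in every library of the other groups.

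Laminin chains showed no member that passed in any comparison. LAMB1, the beta chain of the commonest laminins, stood at 25.4, 25.7 and 29.95 CPM in EV, 15.9, 14.3 and 21.9 in FL and 15.7, 8.45 and 17.5 in SF-mut. Both construct groups lay below EV in each library, while FL-mut (16.2 to 39.9) and SF-Nte (13.0 to 31.4) overlapped it. LAMA4, the alpha chain of vessel laminins, stood at 7.85, 129 and 48.5 CPM in SF-mut against 16.6, 13.9 and 26.4 in EV (log2 fold change 1.68 ± 0.70, edgeR unadjusted p = 0.028, adjusted p = 0.79). It was 0.55 without SF-mut replicate 2. Against SF-Nte (14.8, 5.57 and 12.1 CPM) the difference was 2.48 ± 0.77 (unadjusted p = 0.0050, adjusted p = 0.60), or 1.36 without that library.

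LAMA2, the alpha chain of muscle laminin, stood at 7.78, 2.20 and 2.64 CPM in EV, 14.5, 25.0 and 31.4 in FL and 23.4, 3.46 and 19.8 in FL-mut. In FL-mut its log2 fold change was 1.82 ± 1.15 (edgeR adjusted p = 0.67), from 1.43 without FL-mut replicate 1 to 2.63 without EV replicate 1. LAMB3, a chain of epithelial laminin-332, stood at 5.71, 0 and 1.76 CPM in EV and 15.2, 8.32 and 10.5 in FL, and at 0 in all SF-Nte libraries and 2 of 3 SF-mut libraries; it reached the limit only through FL. LAMC1, the gamma chain of most laminins, stood at 5.29 to 14.5 CPM in EV, 8.57 to 15.5 in FL and 3.71 to 7.27 in SF-Nte, the last lying below FL in each library. LAMB2, a beta chain of vessel and synaptic laminins, stood at 8.07 to 15.04 CPM in EV and overlapped it in every construct group. NID1, the nidogen that ties laminin to collagen IV, stayed within 0 to 4.76 CPM in EV, FL and SF-Nte and reached 22.5 CPM in SF-mut replicate 2. Its difference in SF-mut against EV was 2.10 ± 1.39 (adjusted p = 0.91), or 1.16 without that library. NID2 and HSPG2, which encodes perlecan, had 2 and 13 counts in all and were not tested.

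The matrix glycoproteins were the deepest class. SPARC, a collagen-binding matricellular protein long studied in glioma invasion (chromosome 5, 151661096 to 151687165, minus strand), had 3382 counts in all. Its levels were 180.5, 199.6 and 608 CPM in EV, 143, 72.5 and 208 in FL, and 148, 128 and 145 in FL-mut. SF-Nte stood at 485, 364 and 463, and SF-mut at 201, 352 and 447. FL-mut lay below EV in each library (log2 fold change -1.23 ± 0.46, edgeR unadjusted p = 0.016, adjusted p = 0.43), or -0.46 without EV replicate 3. All SF-Nte libraries lay above all FL libraries, and all SF-mut libraries above all FL-mut libraries. These 2 comparisons had unadjusted p of 0.0027 and 0.015 and adjusted p of 0.16 and 0.42; DESeq2 called the first of them, with 2.86% of all genes.

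TNC encodes tenascin-C, an anti-adhesive glycoprotein abundant in glioblastoma (chromosome 9, 115019578 to 115118257, minus strand). Its levels were 89.7, 62.4 and 124 CPM in EV and 39.4, 22.6 and 20.95 in FL, with no overlap. FL-mut stood at 98.3, 46.1 and 35.8, SF-Nte at 46.1, 63.1 and 60.6, and SF-mut at 86.3, 31.0 and 91.3. The log2 fold change in FL was -1.72 ± 0.50 (edgeR unadjusted p = 0.0032, adjusted p = 0.24), and DESeq2 called it (-1.66, adjusted p = 0.034). FL-mut stood 1.10 ± 0.50 above FL (unadjusted p = 0.040, adjusted p = 0.46), or 0.55 without FL-mut replicate 1.

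FN1 encodes fibronectin, on which many cells assemble other matrix (chromosome 2, 215360440 to 215436172, minus strand). It stood at 1.04, 24.9 and 17.6 CPM in EV and 49.8, 78.5 and 98.1 in FL, a difference of 2.39 ± 0.94 on the log2 scale (edgeR unadjusted p = 0.021, adjusted p = 0.53). EV replicate 1 held 2 counts among 1930245, and without it the difference was 1.81. FL-mut stood at 23.4, 15 and 9.13, below every FL library (log2 difference -2.25 ± 0.94, unadjusted p = 0.029, adjusted p = 0.42). SF-Nte stood at 22.1, 11.1 and 31.5, and SF-mut at 0, 36.6 and 36.9, both overlapping EV. FBLN1 was tested with 48 counts and overlapped EV in all groups, and FBN1, the microfibril protein, had 18 counts and was not tested.

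**Figure D5:**
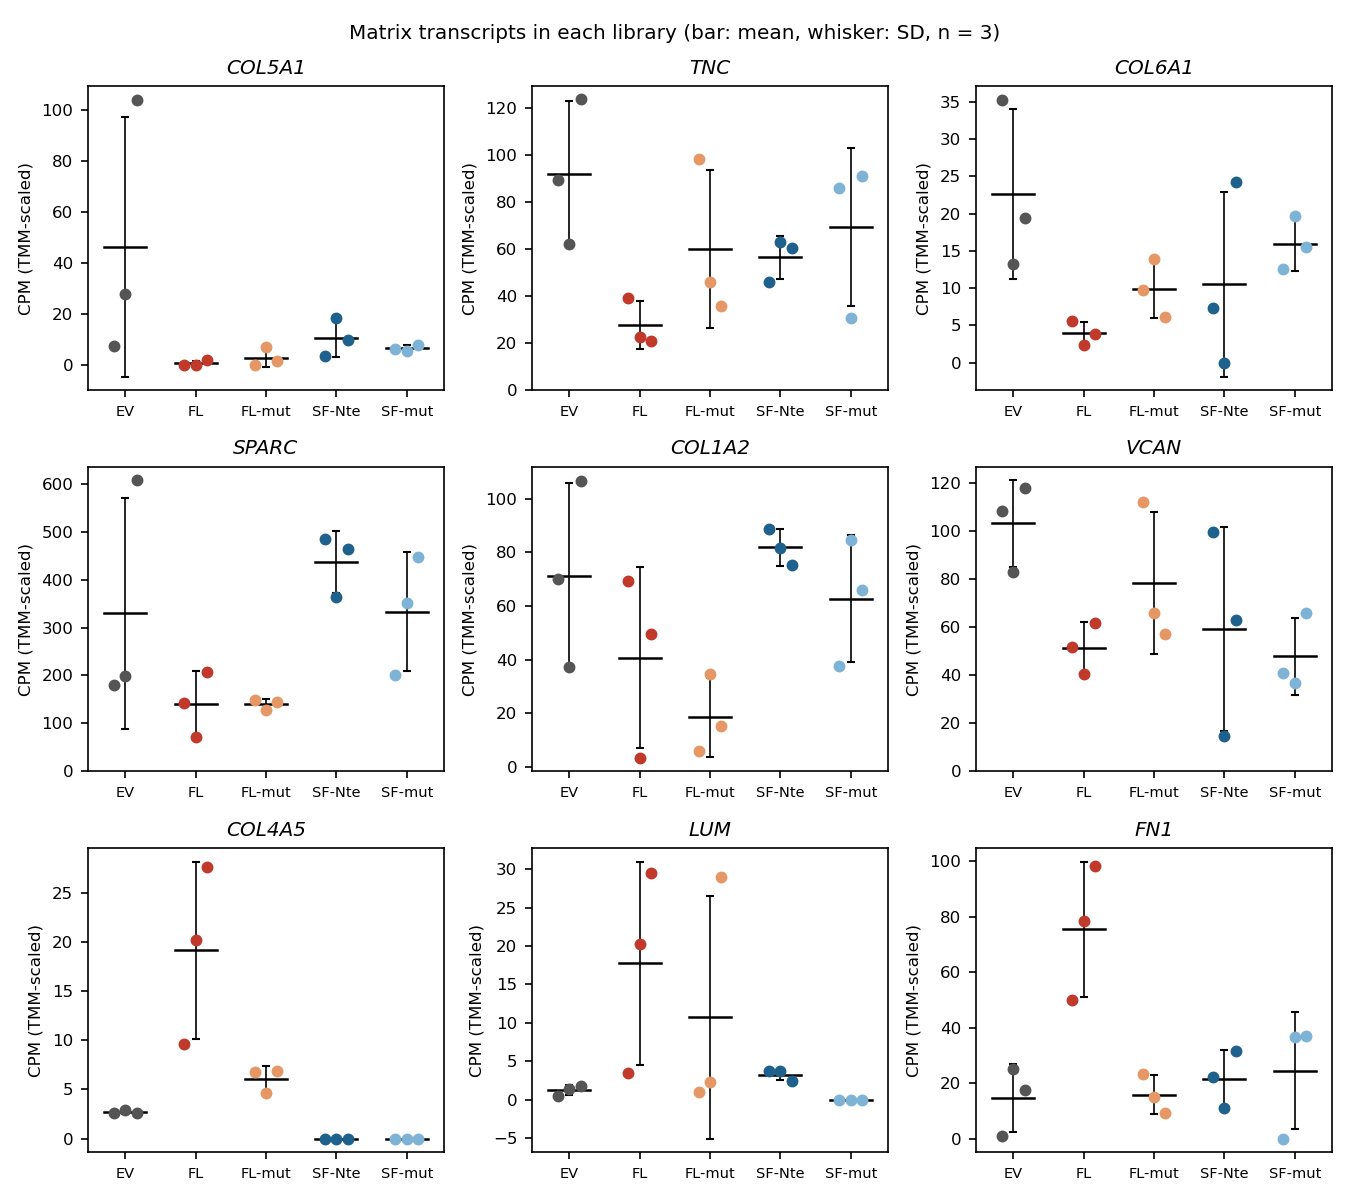
CPM of 9 matrix genes in each library, by group; points are libraries, bars the means and whiskers the SD of 3 libraries. TNC and COL6A1 in FL lie below every EV library, COL4A5, LUM and FN1 in FL lie above them, and SPARC and COL5A1 show 1 EV library far above the other 2.

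Among the proteoglycans, VCAN encodes versican, the large hyaluronan-binding proteoglycan of brain matrix. It stood at 108, 82.9 and 118 CPM in EV, 51.9, 40.4 and 61.9 in FL, and 40.8, 36.6 and 66.0 in SF-mut, both below EV in each library. FL-mut (112, 65.8 and 57.1) and SF-Nte (99.7, 14.8 and 63.02) overlapped EV. The log2 fold change in SF-mut was -1.10 ± 0.52 (edgeR unadjusted p = 0.051, adjusted p = 0.81). LUM encodes lumican, a small proteoglycan that spaces collagen fibrils. EV held 1, 2 and 2 counts, FL 5, 17 and 31, and FL-mut 1, 2 and 38. SF-Nte held 2, 2 and 1, and all SF-mut libraries 0. Its log2 fold change was 3.74 ± 1.22 in FL (adjusted p = 0.35), 3.07 ± 1.202 in FL-mut (0.46) and 1.38 ± 1.34 in SF-Nte (0.89). The FL-mut value was 0.39 without FL-mut replicate 3, which held 38 of 41 counts.

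DCN, the related proteoglycan decorin, was not tested, with 27 counts in all. FL held 6, 2 and 15 of them and EV 1, 0 and 1; FL-mut and SF-mut held 1, 0 and 0 each, and SF-Nte none. COL3A1, a fibrillar collagen that lumican and decorin accompany in connective tissue, had 18 counts: 3, 6 and 6 in FL, 3 in FL-mut replicate 3 and 0 in the 11 other libraries, all multiples of 3. LAMA1 had 10 counts, 7, 0 and 3 in FL and 0 elsewhere. DCN, COL3A1 and LAMA1 were singled out after their values were seen, and other untested members leaned to EV. COL13A1 held 6, 0 and 10 counts in EV and 0 in every construct library. EV also held 14 of the 25 counts of COL27A1 and 9 of the 15 of COL6A3. The 33 untested members held between 1 and 27 counts each over all libraries.

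The collagen cross-linking oxidases were sparse. LOXL2 stood at 5.19, 0.734 and 5.29 CPM in EV and 12.6, 5.63 and 5.83 in SF-mut, above EV in each library (log2 fold change 1.10 ± 0.90, edgeR adjusted p = 0.97), or 0.60 without SF-mut replicate 1. SF-mut replicates 2 and 3 held 2 and 3 counts. A single count stood for 2.82 and 1.94 CPM there, more than their gap to the highest EV library. LOX had 17 counts and was not tested.

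The mutation within each form was tested directly. Within the short form, ZBTB18 was higher in every SF-mut library than in every SF-Nte library, so mutation and construct level changed together. Between FL-mut and FL no member passed (0.0589% of all genes), and 2 had an unadjusted edgeR p under 0.05, FN1 and TNC (10.4%); DESeq2 called 0 members there (1.18% of all genes). FN1 stood lower in FL-mut (3.76% of all genes) and TNC higher (6.59%). The groups did not overlap for 2 members on the higher side, COL18A1 and COL6A1 (8.23%), and for 3 on the lower side, COL4A5, FN1 and LAMB3 (8.36%), the last of which reached the limit only through FL. Between SF-mut and SF-Nte no member and no gene passed (0%), with 2 members at an unadjusted p under 0.05, LAMA4 and COL17A1 (8.07%; both higher, 5.18%; lower 0 members, 2.9%), and 0 called by DESeq2 (0.0393% of all genes). No member lay higher in every SF-mut library (4.9% of all genes), and LUM lay lower in each (5.99%), on 0 counts against 5 in SF-Nte. COL17A1 was at 7.85, 5.63 and 0 CPM in SF-mut and 0 in SF-Nte, so the groups overlapped at 0. With 3 counts over SF-Nte as the floor, SF-mut stood 2.31-fold higher. That value takes its 7 counts without their own error and is no firm lower limit. For the interaction of mutation and form, 0 members passed by edgeR and by DESeq2 (0.0196% of all genes by edgeR, 0.0786% by DESeq2). LAMB3, which reached the limit only through FL, was the only member at an unadjusted p under 0.05 (5.2%).

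The form was compared within the unmutated and the mutated constructs. Within the unmutated pair, form and ZBTB18 level changed together, with SF-Nte the lower, and they were not separated. Between SF-Nte and FL, 6 members had an unadjusted edgeR p under 0.05 (12.2% of all genes): SPARC, COL5A1 and COL7A1 stood higher in SF-Nte (4.05%), and COL4A5, LAMB3 and COL21A1 lower (8.19%). All SF-Nte libraries lay above all FL libraries for 4 members (7.38% of all genes), COL1A2, COL5A1, SPARC and TNC, and below them for 6 (14.7%), COL21A1, COL4A5, FN1, LAMA2, LAMB3 and LAMC1. The ratio of SF-Nte to FL for COL5A1 was 17.9 (exact 95% interval 4.20 to 160.3), on 16 and 2 counts. LAMB3 and COL21A1, in both lower sets, held 40 and 27 counts in FL and 0 in SF-Nte and reached the limit only through FL. Between SF-mut and FL-mut no member passed (0.108% of all genes; 0 by DESeq2, with 1.12%), and 5 had an unadjusted p under 0.05 (9.73%), with SPARC and COL1A2 higher (2.61%) and COL4A5, LUM and COL21A1 lower (7.12%) in SF-mut. The groups did not overlap for 2 members on the higher side (3.73%), COL1A2 and SPARC, and 2 on the lower (9.54%), COL4A5 and LUM. The median log2 fold change of the members was 0.06 between SF-Nte and FL, with 15 of 30 below 0 where 60.1% of all genes were (median -0.25). Between SF-mut and FL-mut it was 0.36, with 12 of 30 below 0 where again 60.1% of all genes were (median -0.23). The comparisons of each form with EV and with each other share libraries.

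Other genes of matrix biology were read from 4 lists. Of 18 tested enzymes and chaperones of collagen modification and secretion, 0 passed in any comparison by edgeR; 3 had an unadjusted p under 0.05 in FL against EV, with P4HA1, a prolyl hydroxylase, and CRTAP lower (3.76% of all genes) and PPIB higher (3.23%), where 6.99% of all genes had such a p. The median log2 fold change of the 18 in FL was -0.63, against -0.03 over all genes. Of 13 tested further matrix glycoproteins, 1 passed, SPP1, which encodes osteopontin, between SF-Nte and FL, where 0.599% of all genes passed. It stood at 175 ± 114 CPM in FL (SD, n = 3) and 925 ± 89.5 in SF-Nte, a log2 difference of 2.39 ± 0.51 (edgeR adjusted p = 0.044). EV stood at 1004 ± 84.0 CPM, FL-mut at 889 ± 394 and SF-mut at 1466 ± 940, and the adjusted p of FL against EV was 0.075. The call was lost in 9 of 15 fits with 1 library left out (adjusted p up to 0.17) and with the replicate block (0.060). In FL against EV, 5 of the 13 glycoproteins had an unadjusted p under 0.05 (6.99% of all genes), TGFBI, SPP1, IGFBP7 and SRPX lower and EFEMP1 higher, and their median over the 13 was -0.67. Of 8 tested other proteoglycans and 2 cross-linkers, 0 passed. In FL against EV, 3 of the 8 had an unadjusted p under 0.05, SDC2 and AGRN higher and SDC1 lower, and 1 of the 2, LOXL1, lower, beside the same 6.99%; LOXL1 held 24 of its 37 counts in EV and reached the limit only through it.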

How the data were processed

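Per gene symbol, the authors deposited raw counts in whole numbers for 15 polyadenylated RNA libraries, made with Oxford Nanopore PCR barcoding and cDNA-PCR kits per the labels' protocols; the counts were not normalised. Per the submitters' processing notes, the build was GRCh38. Which aligner, counter, strand setting and annotation were used is not given in the sources used here. The protocols name no molecular identifiers, so floors and intervals cover counting error only. Fold bounds from a floor leave out the error of the higher group's count. Groups and replicate numbers came from sample titles.

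Genes with a summed count of 30 or more (10183) were fitted with edgeR 4.0.16 in R 4.3.3: TMM scaling, 1 coefficient per group over all 15 libraries (10 residual degrees of freedom), robust quasi-likelihood tests, Benjamini-Hochberg adjustment over all genes at 0.05. The standard error is the log2 fold change divided by the square root of F. DESeq2 1.42.0 and other alternatives are given at the end. The fit was tried on simulated data. Changes were set there in well-counted genes only, so it was not tried on changes at the counts of the sparse members.

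Named were ZBTB18; members past the threshold; up to 3 members per direction of lowest p against EV; the 2 with most counts per class; and listed matrix genes that passed. Others were named after their values were seen. Members and lists were chosen with earlier results of these data known. Positions are from GENCODE release 29 (63 of 63 members matched) and promoters from RefSeq, GRCh38.p14 (47 of 63).

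Replicates differed by more than sampling noise in every group (chi-square per gene 4.23 to 38.0), so none was merged. Over 1615 genes, deviations of same-number libraries from group means correlated at 0.38, 0.17 and 0.54 between EV and FL, all over 0.1, so the numbers were taken to pair EV and FL, from the data and not the labels. All values printed for FL against EV are from the fit without the replicate block unless the block is named. With it 11 members in place of 9 had an unadjusted edgeR p under 0.05, 26 genes in place of 17 passed, and 0 members passed in either. The block put a shared effect per replicate number on all 15 libraries, also on groups whose numbers did not pair. A paired fit of EV and FL alone was not made. No other comparison made had all 3 pairs over 0.1. Between FL-mut and SF-mut, numbers 1, 2 and 3 correlated at 0.62, 0.71 and 0.002. That comparison was fitted as unpaired, and with the block 0 members passed there too.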

Additional observations from a re-analysis of the deposited data

How the results depend on the processing

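The number of matrix members past the threshold depended on the processing. Among the 5 groups it was 1, and it was 0 with filterByExpr (which kept 16 members and dropped COL4A5), 7 with no filter on low counts and 3 by DESeq2 (COL5A1, LAMA4 and SPARC). With 1 library left out it ranged from 0 to 2. For SF-Nte against FL it was 1, and it was 0 with filterByExpr or the 2 groups alone and 3 with no filter, and ranged from 0 to 1 with 1 library left out. For FL against EV it was 2 with no filter and 2 by DESeq2, for FL-mut against EV 1 with no filter and 1 by DESeq2, and for FL-mut against FL 1 with no filter, against 0 in each case. Over all genes, 71 of 10183 passed among the 5 groups, against 1059 of 18485 without a filter and 668 by DESeq2. Without a filter 202 passed in FL and 219 in FL-mut against EV, 348 between FL-mut and FL and 301 between SF-Nte and FL; DESeq2 called 137 and 149 in the first pair. Causes were not tested. DESeq2 gave no adjusted p for COL4A5.

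With the replicate number as a block over all 15 libraries, the count was 0 among the 5 groups and 0 for SF-Nte against FL. The edgeR adjusted p of COL4A5 were 0.077 and 0.075 there, and that of SPP1 was 0.060 in SF-Nte against FL. No other member count moved, and in FL against EV 26 of all genes passed in place of 17. Of 639 fold changes under alternatives, 608 kept direction and side of the threshold, but only 2 of the 30 results had passed, COL4A5 and SPP1 between SF-Nte and FL; they lost the call 13 and 10 times, and 7 values of other results gained one. One value reversed, COL6A2 in SF-Nte (1.87; from -1.09 without SF-Nte replicate 2 to 2.67 without EV replicate 1). Dividing counts by a shared divisor or using DESeq2 size factors kept each member count. The limit of 30 was not applied again to the divided counts, so that fit could not show members lost by it. Depth limits what could be seen: 3 counts over the SF-Nte group stand for 2.01 CPM, and 33 of 63 members were too sparse to test.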

Other observations

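Counts of some matrix genes shared a divisor in all libraries. Among tested genes with counts in 3 or more libraries, 423 of 10179 (4.16%) had such counts, and so did 3 of the 30 tested members: COL5A1 and COL11A1 with all counts even and COL18A1 with all counts multiples of 4.

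Matrix transcripts are long. The longest annotated transcript of the 30 tested members had a median of 6230 bases (2896 to 12625), against 3677 bases for 10018 tested genes with an annotation, and the 33 untested members had a median of 6425 bases.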
